A study of Xenopus laevis with 5 samples.

Results

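The FoxI fork head genes foxi1 and foxi4.2 and the CP2-type gene ubp1 were followed in epidermal explants of Xenopus laevis, the African clawed frog, that had received 1 of 2 mRNAs. All probe sets that the array's annotation assigns to foxi1.L, foxi4.2.L, foxi4.2.S or ubp1.L were taken, which gave 5 of 15491 probe sets. There were 2 for foxi4.2.L and 1 for each other gene. The letters L and S mark the 2 homeologs, the copies of a gene on the long and short chromosomes of this allotetraploid frog. Homeologs of foxi1 and ubp1 on the short chromosomes were not analysed here.

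Embryos were given synthetic mRNA for ICD (3 arrays) or HMM (2 arrays) at the 2-cell stage and raised in a frog saline, 0.1X MMR. The presumptive ectoderm was explanted at stages 9 to 10, kept on fibronectin in Danilchik's medium with 0.1% BSA, and its total RNA was taken at the equivalent of stage 22. No genotype or strain is given in the sources used here, and the labels do not say whether samples came from separate batches of embryos. The p-values therefore measure the spread between these samples, which may be technical. ICD and HMM are not spelled out in the labels. The title of the series concerns Notch in the epidermis, and in frog work these letters commonly stand for the Notch intracellular domain, an activator, and for a truncated Mastermind, a blocker. That reading is background and enters no test. Uninjected explants were not analysed here, so higher and lower always mean ICD relative to HMM.

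The larval frog skin contains ionocytes, cells rich in proton pumps, anion exchangers and carbonic anhydrase that move acid, base and ions. They arise in the inner layer of the ectoderm, like the multiciliated cells, and Notch signalling limits how many of both cell types form. Foxi1 is the fork head factor that specifies ionocytes, and in the mouse it also drives the genes of the acid-secreting intercalated cells of the kidney. RefSeq lists foxi1e and xema among the other names of foxi1.L, names under which the gene is also known as an early activator of ectodermal fate. Ubp1 belongs to the CP2 branch of the grainyhead family and is expressed in the ionocytes of the frog skin.

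Signals are MAS5 intensities on a linear scale, scaled to the same trimmed mean on each array. Median signal per array was 62.1 to 72.7, so signals well below that are dim. Probe sets were tested where they exceeded 42.6 (the 40th percentile of all values) on at least 2 arrays. Differences are ICD minus HMM on the scale of log2(signal + 5.9), which understates the change of dim genes, and the threshold was a limma adjusted p of 0.05. ICD replicate 3 stood apart in its poly-A spike-in controls: the 15 control probe sets had a median of 2.4 there and of 291.3 to 353.3 elsewhere.

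**Figure D1:**
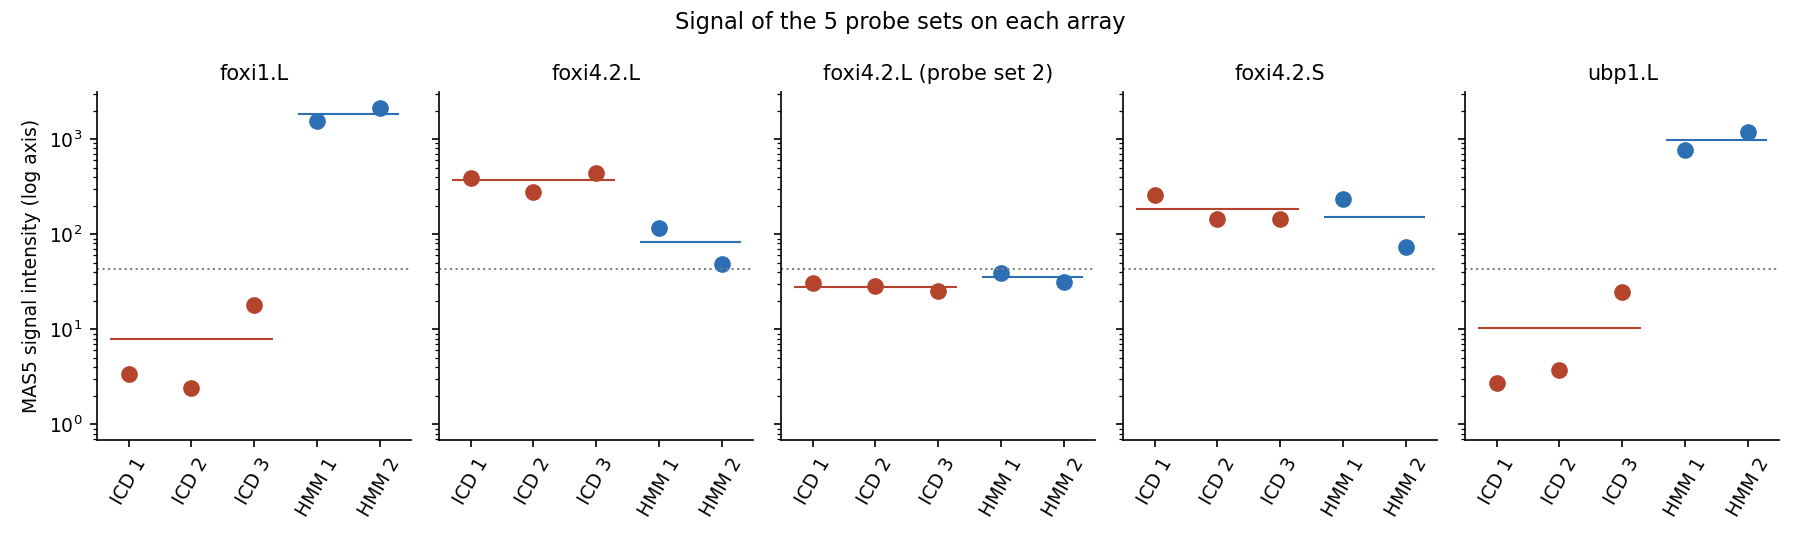
Signal intensity of each of the 5 probe sets on the 5 arrays (log axis), ICD in red and HMM in blue, with a line at each group mean and a dotted line at the filter value of 42.6. The foxi1.L and ubp1.L signals lay below 42.6 on all 3 ICD arrays and at 762.9 or more on both HMM arrays, foxi4.2.L was higher in ICD, and the foxi4.2.S groups overlapped.

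foxi1.L and ubp1.L were strongly expressed in HMM explants and dim in ICD explants, at 24.5 or less on every ICD array. The main probe set of foxi4.2.L went the other way. Of the 4 member probe sets that passed the filter, 2 were lower in ICD, 1 was higher and 1 did not pass the threshold. Of all 9981 probe sets tested, 5.05% passed: 3.50% were lower and 1.55% higher. The fifth probe set, the other one for foxi4.2.L, was too dim to be tested. foxi1.L and ubp1.L exceeded the filter value on the HMM arrays alone. In the fit without a filter both were also called lower (limma adjusted p = 0.0037 and 0.0092).

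The signal of foxi1.L was 3.4, 2.4 and 17.9 across the ICD arrays, against 1550.2 and 2135 across the HMM arrays. On the HMM arrays it exceeded 96.3% and 97.9% of all probe sets, and on the ICD arrays 6.95%, 4.94% and 23.2%. Group means were 7.9 ± 8.67 over the ICD arrays (SD, n = 3), against 1843 ± 414 over the HMM arrays (SD, n = 2). The fitted difference was -7.22 ± 0.49 (SE; 95% interval -8.37 to -6.07; limma adjusted p = 0.0032). Because the ICD signals are dim, the size of the fold rests on the treatment of low values. With every signal below 42.6 raised to 42.6, the HMM mean was still 43.3 times the ICD mean.

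The signal of ubp1.L was 2.7, 3.7 and 24.5 across the ICD arrays, against 762.9 and 1190.2 across the HMM arrays. As for foxi1.L, ICD replicate 3 was the highest of the ICD arrays and HMM replicate 2 the higher of the HMM arrays, and the groups lay far apart. Its mean was 10.3 ± 12.3 over the ICD arrays (SD, n = 3), against 977 ± 302 over the HMM arrays (SD, n = 2). The difference was -6.14 ± 0.57 (SE; 95% interval -7.49 to -4.79; limma adjusted p = 0.0078). With dim signals raised to 42.6 the ratio of means was 22.9. Without HMM replicate 2 the difference was -5.82 and was not called (limma adjusted p = 0.0878), in a fit where 11 probe sets in all were called. foxi1.L stayed past the threshold there (limma adjusted p = 0.0341).

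Without ICD replicate 3, whose spike-in controls stood apart, foxi1.L differed by -7.70 and ubp1.L by -6.72, both past the threshold (limma adjusted p = 0.0032 and 0.0042). These are values of whole explants, in which fewer ionocytes and less transcript per ionocyte cannot be told apart.

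**Figure D2:**
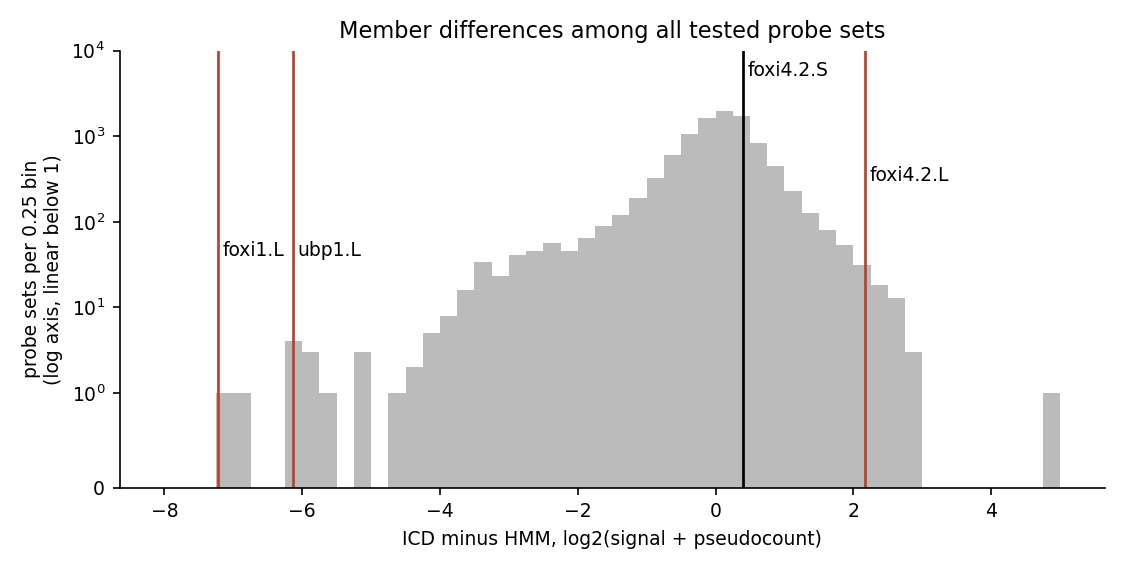
Differences of ICD minus HMM (log2) for the 4 tested member probe sets, drawn as lines over the distribution of all 9981 tested probe sets (bars, probe sets per bin of 0.25, log axis that is linear below 1). Red lines passed the threshold and the black line did not. The lines for foxi1.L at -7.22 and ubp1.L at -6.14 lie at the far left end, foxi4.2.L at 2.16 lies in the right tail and foxi4.2.S at 0.40 lies in the bulk.

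The 2 factors were compared with each other by the difference foxi1.L minus ubp1.L within each array, on the log2 scale. Such a difference removes what an array's scaling adds to both only where signals far exceed the pseudocount of 5.9. This difference was 0.11, -0.21 and -0.35 across the ICD arrays, against 1.02 and 0.84 across the HMM arrays. The groups differed by 1.08, and an exact permutation test over arrays (two-sided) gave p = 0.2. That is the smallest value this test can give with 3 arrays against 2, so it could not pass whatever the data. The ICD signals of both genes were 2.4 to 24.5, close to the pseudocount of 5.9, so the shift largely reflects the HMM signals of 2 different probe sets and is not read as a difference in the size of the changes.

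The main probe set of foxi4.2.L gave a pattern opposite to that of foxi1.L. RefSeq lists XFD2 and foxi1a among the other names of foxi4.2. Its signal was 389.6, 279.3 and 436.9 across the ICD arrays, against 117.1 and 49.1 across the HMM arrays, and the lowest ICD array lay above the highest HMM array. Groups that do not overlap were found for 37.5% of all probe sets tested. The mean was 369 ± 80.9 over the ICD arrays (SD, n = 3), against 83.1 ± 48.1 over the HMM arrays (SD, n = 2). The difference was 2.16 ± 0.40 (SE; 95% interval 1.22 to 3.10; limma adjusted p = 0.0299), the 43rd highest of all tested. With ICD replicate 2, ICD replicate 3 or HMM replicate 2 left out, the difference was 2.35, 2.03 and 1.58 and was no longer called (limma adjusted p = 0.0679, 0.0966 and 0.184). In the fits that lack ICD replicate 2 or HMM replicate 2, only 1 probe set of the whole array was called higher.

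The other foxi4.2.L probe set did not show this rise. It read 30.6, 28.4 and 25.4 across the ICD arrays, against 38.7 and 31.5 across the HMM arrays, below 42.6 throughout, and its ICD signals all lay under its HMM signals. In the fit without a filter on low values it differed by -0.27 ± 0.29 (SE; limma adjusted p = 0.723). The 2 probe sets of this gene thus disagree. The higher value of foxi4.2.L rests on its main probe set alone, and which transcripts the dim one detects was not tested.

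The homeolog foxi4.2.S read 257.2, 143.2 and 145.7 across the ICD arrays, against 233 and 73.5 across the HMM arrays. Replicate 1 was the highest array of each group, and the groups overlapped. The mean was 182 ± 65.1 over the ICD arrays (SD, n = 3), against 153 ± 113 over the HMM arrays (SD, n = 2). Its difference of 0.40 ± 0.50 (SE) did not pass (limma adjusted p = 0.718). The 95% interval of -0.79 to 1.58 spans both directions and does not show that the level was equal. Without HMM replicate 2 the difference was -0.40, so the sign rests on that array.

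Within each array, the main probe set of foxi4.2.L minus foxi4.2.S was 0.59, 0.94 and 1.55 in ICD and -0.96 and -0.53 in HMM on the log2 scale. It was above 0 on every ICD array and below 0 on both HMM arrays. Since the homeologs are read by different probes, their levels cannot be ranked, and only the shift between groups can be read. That shift was 1.77 larger for the main L probe set than for the S homeolog. The dim foxi4.2.L probe set, which differed by -0.27, was not used for it. The exact permutation test over arrays (two-sided) gave p = 0.2, again the smallest value this test can give with these arrays. Its outcome therefore says nothing on whether the homeologs responded unequally. Whether the probes of either homeolog also capture the other was not tested.

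**Figure D3:**
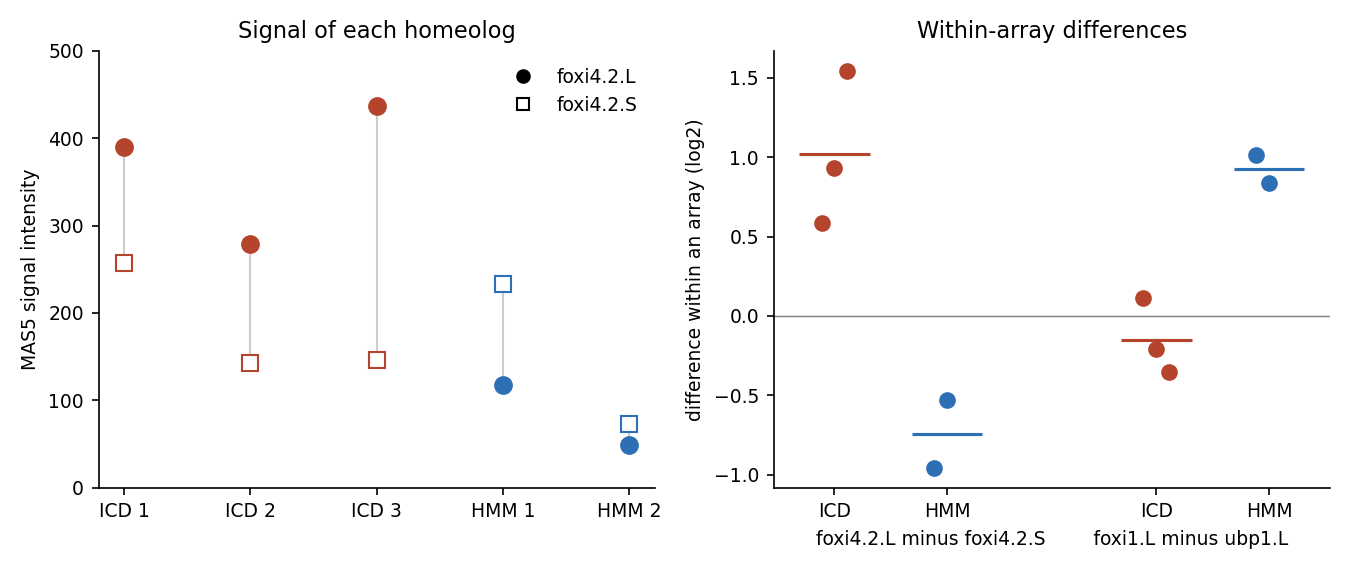
Left, signal intensity of foxi4.2.L (main probe set, filled circles) and foxi4.2.S (open squares) on each array, ICD in red and HMM in blue. Right, differences within an array on the log2 scale for foxi4.2.L minus foxi4.2.S and for foxi1.L minus ubp1.L, with a point per array and a line at each group mean. The points of the groups do not overlap in either comparison: the first runs from 0.59 to 1.55 in ICD and from -0.96 to -0.53 in HMM.

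The grainyhead and CP2 family, to which ubp1 belongs, was measured beyond ubp1.L with 5 genes. Counting ubp1.L, 3 of 6 tested genes were lower in ICD, none was higher and 3 did not pass. The median difference of the family, with ubp1.L included, was -1.03, against 0.08 over all probe sets tested. The other 2 lower genes were both homeologs of tfcp2l1, which encodes a CP2 factor that in the mouse kidney acts together with Foxi1 in intercalated cells.

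The signal of tfcp2l1.L was 196.2, 122.9 and 203.3 across the ICD arrays, against 1076.1 and 1512.3 across the HMM arrays. Its difference was -2.86 ± 0.31 (SE; limma adjusted p = 0.0118), and the groups lay well apart. The S homeolog read 421.8, 329 and 450.9 in ICD and 911 and 988.8 in HMM, a difference of -1.24 ± 0.24 (SE; limma adjusted p = 0.0337). Unlike ubp1.L, both kept signals above 100 on every ICD array. With HMM replicate 2 left out no member of the family was called, and tfcp2l1.S was called in no fit that lacked 1 of the arrays other than ICD replicate 1.

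The remaining members differed less and did not pass. The related CP2 gene tfcp2.L differed by -0.54 at both of its probe sets (limma adjusted p = 0.355 and 0.374). The grainyhead genes grhl1.L and grhl3.L, which act in epidermal differentiation and barrier formation, differed by -0.56 and -0.82 (limma adjusted p = 0.182 and 0.309). The groups of grhl3.L overlapped, with 113.6 to 214.3 in ICD and 191.5 to 349.3 in HMM.

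To find the genes whose pattern over the 5 arrays is most like that of each factor, log2 profiles were centred and compared by their root mean square distance. Over 6541 other probe sets with a single symbol, the 8 nearest to each factor were taken. For foxi1.L the nearest was slc26a4l.L, a pendrin-like anion exchanger gene, at a distance of 0.34, and ubp1.L came next at 0.56. The median distance over all of these probe sets was 3.71. The signal of slc26a4l.L was 21.9, 32 and 53.3 across the ICD arrays, against 3785.3 and 5631.7 across the HMM arrays.

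The other neighbours of foxi1.L were the carbonic anhydrase genes ca12.L and ca2.S, the proton pump subunit genes atp6v0d2.L and atp6v0a4.L, the pump's accessory subunit gene atp6ap1.1.L and fetub.S, a fetuin gene. Their distances ran from 0.79 to 1.16. For ubp1.L the neighbours were much the same: slc26a4l.L (0.49), atp6ap1.1.L (0.52), ca12.L (0.55), foxi1.L (0.56), atp6v0d2.L, ca2.S, ca2.L and fetub.S. Distances are driven by the size of the difference between the groups, and 5 arrays of 1 contrast cannot separate genes within such a set.

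**Figure D4:**
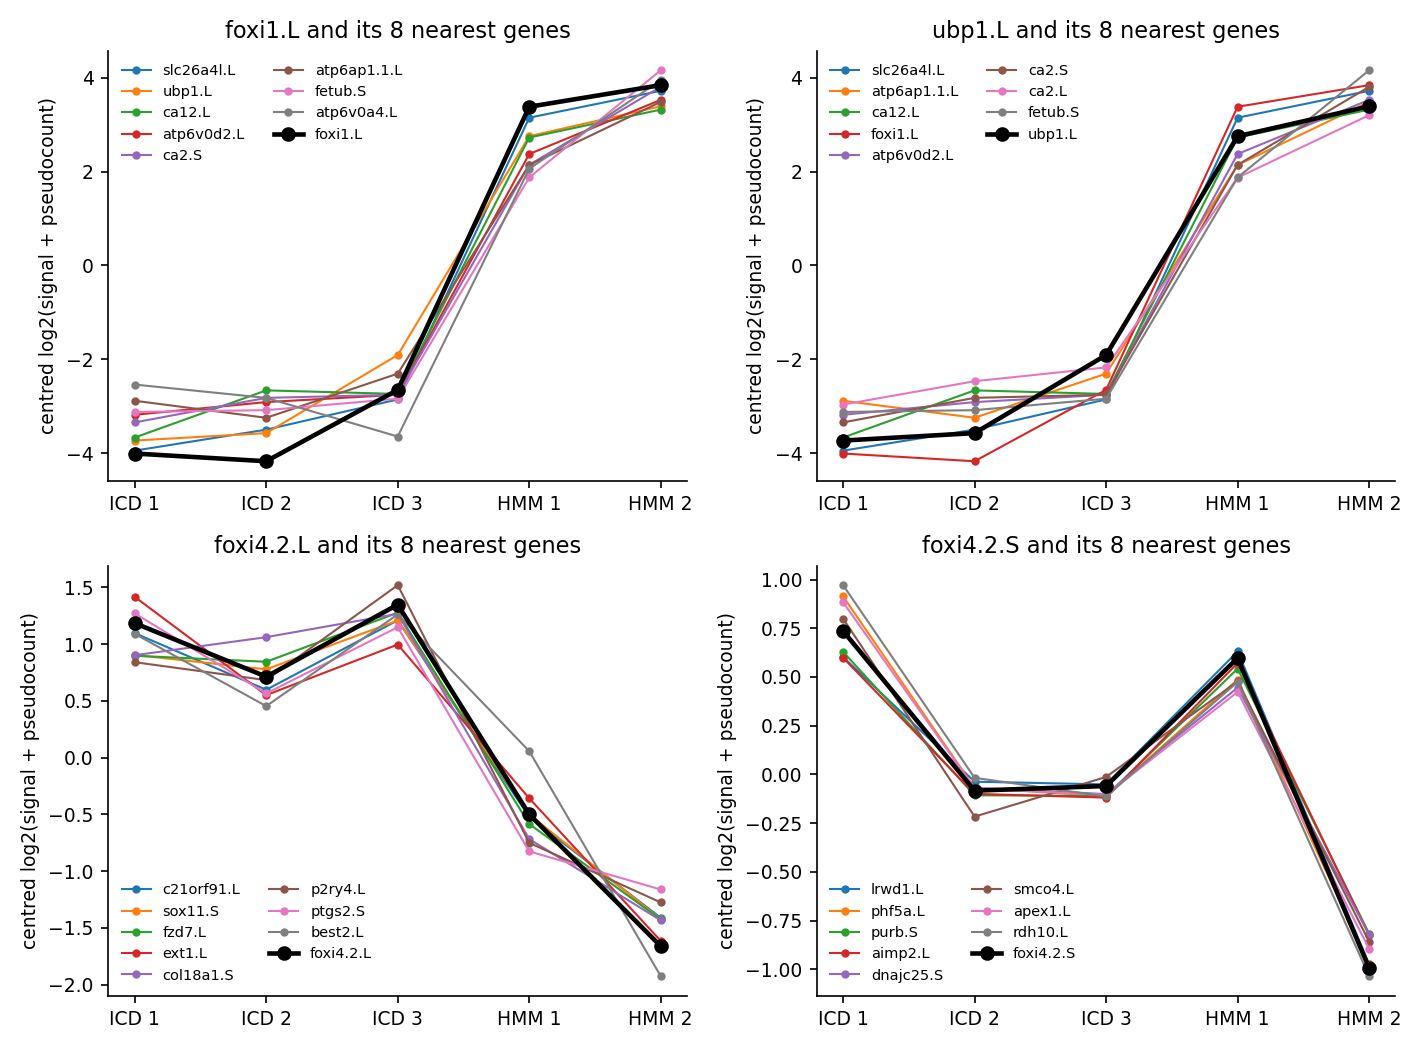
Centred log2(signal + 5.9) of each of foxi1.L, ubp1.L, foxi4.2.L and foxi4.2.S (black) and of its 8 nearest genes (colours) on the 5 arrays, which the lines join only to guide the eye. The foxi1.L and ubp1.L sets step up from ICD to HMM, the foxi4.2.L set steps down, and the foxi4.2.S set is high in replicate 1 of both groups.

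Genes close to foxi4.2.L were of other kinds. The nearest were c21orf91.L (0.14), the SoxC transcription factor gene sox11.S (0.18), the Wnt receptor gene fzd7.L (0.18) and ext1.L (0.21), which encodes an enzyme of heparan sulfate synthesis. They were followed by the collagen gene col18a1.S, the purinergic receptor gene p2ry4.L, the prostaglandin synthase gene ptgs2.S and the bestrophin channel gene best2.L, at 0.25 to 0.30. Of these 8, 6 were called higher, while ext1.L and best2.L, with differences of 1.97 and 1.87, did not pass. Since the 8 were chosen for likeness to a gene that was called higher, these calls largely follow from that choice. Among them, c21orf91.L and best2.L exceeded the filter value of 42.6 on ICD arrays alone. The signal of sox11.S was 1016.7, 930.9 and 1256.9 across the ICD arrays, against 380.2 and 197.7 across the HMM arrays.

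Around foxi4.2.S stood genes that differed by array more than by group. They were lrwd1.L, phf5a.L, purb.S, aimp2.L, dnajc25.S, smco4.L, apex1.L and rdh10.L, at distances of 0.07 to 0.13. The splicing factor gene phf5a.L and the DNA repair gene apex1.L are examples. The signal of phf5a.L was 740.5, 371.7 and 361.1 across the ICD arrays, against 549.3 and 195.8 across the HMM arrays, with replicate 1 the highest in both groups. None of the 8 was called, which largely follows from choosing them for likeness to a gene that was not called. foxi4.2.L itself ranked 5315th of 6541 in likeness to foxi4.2.S, at a distance of 0.95, where the median was 0.65. Seen from foxi4.2.L, the same distance ranked foxi4.2.S 1314th, where the median was 1.14.

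Among effector genes of ionocytes, the pumps, exchangers and enzymes that carry out acid and base transport, 11 of 13 tested genes were lower in ICD, none was higher and 2 did not pass. The median difference of the 13 was -5.14. Like the other lists used here, this one was chosen with earlier results of these data known. Such counts are therefore descriptions and not independent evidence. A further gene, rhbg.S, was too dim to be tested and went the other way. It read 14.5, 17.9 and 31.5 across the ICD arrays, against 1.8 and 5.3 across the HMM arrays. Among the 11, ca12.L, ca2.S, atp6v0a4.L, atp6ap1.1.L and slc4a1.L exceeded the filter value of 42.6 on the HMM arrays alone. In the fit without a filter, 11 of the 13 were called lower as well. Between 7 and 11 were called lower with any 1 array left out, the 7 without HMM replicate 2. HMM replicate 2 read above HMM replicate 1 for 12 of the 13, as it did for foxi1.L and ubp1.L. This order was not particular to ionocyte genes: 10 of 11 tested multiciliated cell markers had it, and 45.8% of all tested probe sets. The genes slc16a3.S, a monocarboxylate transporter gene, and atp6v1a.L, which encodes the pump's catalytic subunit, were the 2 that did not pass, at -0.72 and -0.75.

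Markers of multiciliated cells moved in the same direction. Of 11 tested, 10 were lower, none was higher and ccno.L did not pass, with a median of -3.17. Among the 10, tekt2.L exceeded the filter value on the HMM arrays alone. In the fit without a filter 10 were called lower as well. The summed signal of all 12 measured genes, with the untested dnah9.S, was 451.6 to 1649 on the ICD arrays and 6089 to 11749 on the HMM arrays. ICD replicate 1 was the lowest ICD array for all 11 multiciliated markers and for 41.8% of all tested probe sets. It was also the lowest for ubp1.L, while for foxi1.L the lowest was ICD replicate 2. ICD replicate 3 was the highest ICD array for all 11 markers, as for foxi1.L and ubp1.L, and for 31.6% of all tested probe sets. The axoneme gene tekt2.S read 14.7, 56.2 and 71.9 in ICD, with ICD replicate 1 the lowest and ICD replicate 3 the highest. With ICD replicate 2 or HMM replicate 2 left out none of the 10 was called, and 5 or 6 were called with ICD replicate 3 or HMM replicate 1 left out. Their part in the foxi1.L and ubp1.L values was not tested.

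Of the Notch pathway genes, 2 of 14 tested were higher in ICD, 1 was lower and 11 did not pass, with a median of 0.69. Target genes among the 11 differed in direction: hes5.1.L (2.55), hey1.S (2.37), hes5.10.L (1.26), hes4.S (1.09), hes1.L (-1.09) and hes1.S (-1.04). ICD replicate 1 stood far above the other ICD arrays for hes5.1.L (660.7, against 44.7 and 23) and hey1.S (1154.7, against 222.7 and 200.9). The target gene hes4.L, a repressor, and the ligand gene jag1.L were called higher, by 1.12 and 2.35. The signal of jag1.L exceeded the filter value of 42.6 on the ICD arrays alone. By eBayes without trend hes4.L was not called (limma adjusted p = 0.0502). The gene called lower was neurl1.L, whose product promotes the uptake of Notch ligands. The fit without a filter also called 2 Notch pathway genes higher and 1 lower. neurl1.L exceeded the filter value on the HMM arrays alone. It read 4.6, 12.9 and 39.1 across the ICD arrays, against 315.2 and 434.4 across the HMM arrays, with the same order of arrays within the HMM group as foxi1.L and ICD replicate 3 again the highest of its group. Neither higher gene was called once ICD replicate 2, ICD replicate 3 or HMM replicate 2 was left out, hes4.L was not called when HMM replicate 1 was, and neurl1.L was not called when ICD replicate 2 or HMM replicate 2 was.

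Among regulators of the early ectoderm no gene was called lower. Of 11 tested, 3 were higher, none was lower and 8 did not pass, and the median was 0.51. The higher genes were sox11.S, the Kruppel-like factor gene klf17.L (2.00) and tp63.L (1.56), a regulator of basal epidermis. The genes of the epidermal factors dlx3, gata2 and tfap2a did not pass: dlx3.L and dlx3.S differed by 0.46 and -0.42, gata2.L by -0.43 and tfap2a.L by 0.93. The number called higher was 0 when ICD replicate 2 or HMM replicate 2 was left out, 1 without ICD replicate 3 and 5 without ICD replicate 1.

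No gene on the lists for the skin's goblet, basal or small secretory cells was called lower in ICD in the fit without a replicate block. Whether each listed gene marks only that cell type was not tested. Of the genes on the goblet cell list, agr2.L (1.39) and itln1.L (-0.33) did not pass. Of the genes on the small secretory cell list, slc18a1.S (-0.53), htr3a.L (-0.40) and foxa1.S (-0.29) did not pass, all on the lower side. Called higher were 3 of 5 tested genes on the goblet cell list (agr2.S, cldn1.S and capn8.3.L). So were all 3 tested on the basal cell list (tp63.L, itga3.L and zfp36l1.S). On the small secretory cell list it was 1 of 4 tested (pnhd.L, which exceeded the filter value on the ICD arrays alone). None of these was called once ICD replicate 2 or HMM replicate 2 was left out.

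The labelled tissue was checked against markers. The epidermal lectin gene itln1.L read 5924.8 to 10404.4 in ICD and 8611.6 to 10233.5 in HMM. Genes of neural plate, neural crest and mesoderm, which an ectodermal explant is not meant to form, were in part dim. Of 18 measured genes, 8 were not tested, among them the mesoderm gene tbxt.S at 8.6 to 27.6. Others were bright in ICD: otx1.L read 1319.1 to 2210.2, otx2.L 294.5 to 1106.7 and snai1.S 213.3 to 971. The differences of snai1.S and otx2.L, 2.67 and 1.58, did not pass (limma adjusted p = 0.0681 and 0.188). Of the 10 tested, otx1.L and ckm.L were higher in ICD (1.84 and 1.52), none was lower and 8 did not pass. Neither was called once ICD replicate 2, ICD replicate 3 or HMM replicate 2 was left out, and 6 were called higher without ICD replicate 1. The eye and neural gene pax6.L is among the 8 by its brightest probe set, at 0.71. Its 3 other tested probe sets were called higher, at 2.69, 2.41 and 2.09 (limma adjusted p = 0.0226, 0.0254 and 0.0256). Those 3 exceeded the filter value of 42.6 on ICD arrays alone. With signals below 42.6 raised to 42.6, their ICD means were 1.64, 1.26 and 1.62 times the HMM means. The other tested probe sets of ckm.L were not called, at 1.32 and 1.29 (limma adjusted p = 0.298 for each), and their groups overlapped. The summed signal of the 18 was 2840, 5276 and 5382 across the ICD arrays, against 1588 and 1461 across the HMM arrays. This sum was higher in ICD, as foxi4.2.L was, and bright genes such as otx1.L weigh most in it. Its lowest ICD array was replicate 1, whereas foxi4.2.L was lowest on ICD replicate 2. The part of the 18 genes in the foxi4.2.L value was not tested.

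**Figure D5:**
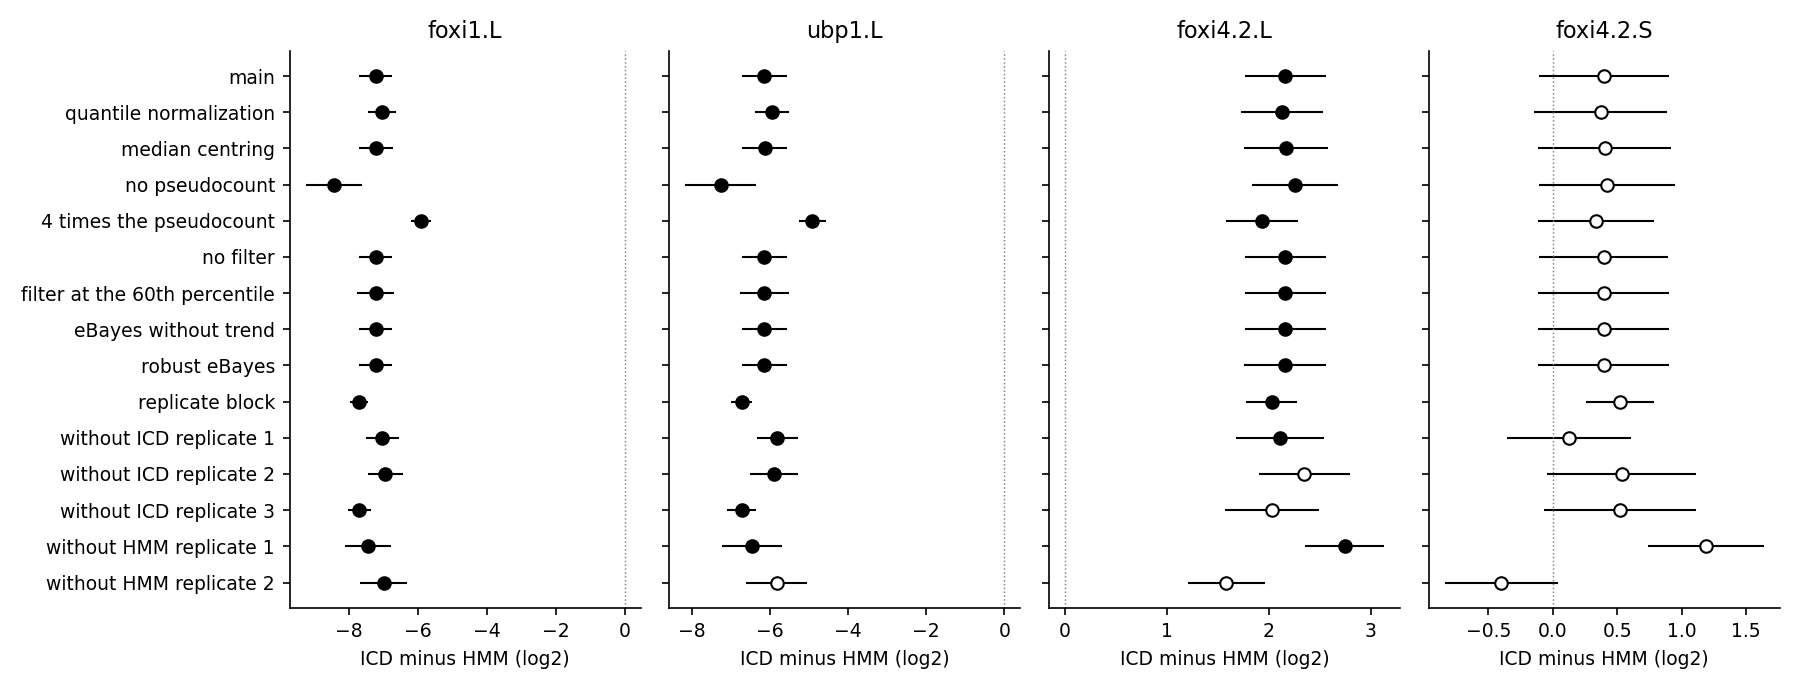
Difference of ICD minus HMM (log2, with SE bars) for foxi1.L, ubp1.L, foxi4.2.L and foxi4.2.S in the reported fit, labelled main, and under each alternative setting. Filled points passed the threshold and open points did not. The foxi1.L points lie between -8.43 and -5.90 and are all filled, whereas the foxi4.2.S points are all open and 1 lies below 0.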

How the data were processed

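RNA of 5 explant samples was hybridised to 1-colour Affymetrix arrays. The authors deposited linear signal intensity values, made with MAS5 per the submitters' processing notes; no version or setting is stated there. Trimmed means (2%) were near 200.03 on every array, so no further scaling was applied. MAS5 subtracts mismatch signal, which makes dim values noisy, and detection calls were not used. The 120 control probe sets were left out. Of 15491 others, 9304 had 1 gene symbol on the platform annotation, 195 several and 5992 none; 9227 of the 1-symbol probe sets matched RefSeq's gene table (Xenopus_laevis_v10.1).

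Values were tested as log2(intensity + 5.9), the 10th percentile, with limma 3.58.1 (R 4.3.3; lmFit, eBayes with trend, two-sided, no covariates), and p-values were adjusted by Benjamini-Hochberg over 9981 probe sets above the filter. Changes of 2 genes were compared by exact permutation over arrays (scipy 1.17.1). The fit was tested on simulated data. A gene's brightest tested probe set on average stood for it. Named were all members, the 8 nearest genes of each, both factor families, and examples of up to 6 called genes per list by smallest p, besides genes that did not pass, which were chosen after their values were seen. The members and the 10 lists were chosen with earlier results of these data known, and a planned count of promoter motifs was not run. Alternatives covered normalization, pseudocount, filter, variance model, each array left out and a replicate block; counts within lists under these settings and the raising of dim values were added after seeing the data.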

Additional observations from a re-analysis of the deposited data

How the results depend on the processing

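The differences of foxi1.L kept direction and call under all 14 alternatives, from -8.43 (no pseudocount) to -5.90 (4 times the pseudocount), and from -7.70 to -6.94 with 1 array left out. Those of ubp1.L were called in 13 of 14, from -7.25 to -4.91, and from -6.72 to -5.81 with 1 array left out. The foxi4.2.L difference was called in 11 of 14 and ran from 1.58 to 2.74 with 1 array left out. That of foxi4.2.S was never called and ran from -0.40 to 1.19, reversed without HMM replicate 2. Without that array 8 neighbours of foxi4.2.S that were not called also reversed: aimp2.L (from -0.44 to 0.95 over the fits with 1 array left out), apex1.L (-0.19 to 1.13), dnajc25.S (-0.26 to 1.01), lrwd1.L (-0.46 to 1.15), phf5a.L (-0.24 to 1.22), purb.S (-0.41 to 0.95), rdh10.L (-0.19 to 1.32) and smco4.L (-0.29 to 1.05). These genes were chosen for their likeness to foxi4.2.S over arrays that include HMM replicate 2, so their reversal follows from that choice. What sets that array apart was not tested. With 1 HMM array the lone sample is assumed to vary like the ICD group. The within-array shifts ran from 1.51 to 1.98 (foxi4.2.L minus foxi4.2.S) and from -1.21 to -0.98 (foxi1.L minus ubp1.L) with 1 array left out.

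Over all probe sets 504 were called, 155 higher and 349 lower. With 1 array left out, counts ran from 11 to 843, from 1 to 362 higher and from 10 to 481 lower, and these fits have fewer samples. The labels give both groups replicate numbers 1 and 2, which is too few pairs to show that a number pairs samples. Across probe sets, deviations from the group means correlated at 0.65 for the replicates numbered 1 and at 0.51 for those numbered 2. Within a group such deviations offset one another, so these values are not independent. ICD replicate 3 also correlated with HMM replicate 2, at 0.40, without a shared number. With the replicate number as a block 1714 probe sets were called, 744 higher and 970 lower. The members then differed by -7.70, -6.72, 2.03 and 0.52 (foxi1.L, ubp1.L, foxi4.2.L, foxi4.2.S) with no change of call. Only ICD has a replicate 3, so that array adds nothing to these differences, which equal those of the fit without it. In that fit foxi4.2.L was not called (limma adjusted p = 0.0966). Among the lists, the block gave 5 higher and 3 lower Notch pathway genes, 5 higher early ectoderm genes, 4 higher neural, crest and mesoderm genes, and lower calls for 1 goblet and 2 small secretory cell genes. The number of arrays limits the precision of every value.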
